A study of Rattus norvegicus with 4 samples.

Results

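Blood vessels of the neonatal rat frontal cortex were followed through 38 genes that mark endothelial cells, the blood-brain barrier, pericytes and vascular smooth muscle, of which 37 were found by their gene symbol among the 16182 genes listed in all libraries. RNA from this tissue was sequenced as 1 library for each sex and prenatal treatment, which gave 4 libraries named here control male, control female, BPA male and BPA female. Dams of all groups were Wistar rats (per the labels; the study's methods give Wistar Furth), gavaged each day from gestation day 1 until birth. The BPA groups received bisphenol A, a synthetic compound of polycarbonate plastics and epoxy resins with estrogen-like activity, at 5000 µg per kg of maternal body weight. The control groups received the vehicle, ethanol in corn oil. Pups were taken at postnatal day 1 according to the labels. The study's methods let this age run to the following day, and describe several pups per sex and treatment from independent litters. Neither source states whether a library pooled them. The study's methods state that the meninges were taken off at dissection. The question was how the vascular genes of the offspring stood with BPA against vehicle, in each sex and over both sexes.

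The vessel wall is built of endothelial cells that line the lumen and of mural cells that wrap around them, which are pericytes on capillaries and smooth muscle cells on arterioles and venules. In the brain, endothelial cells are sealed by tight junctions and carry nutrient transporters and efflux pumps, and together these form the blood-brain barrier. Around birth the cortical vessels are still growing, guided by VEGF, angiopoietin, apelin and PDGF-B signals, the last of which recruits pericytes.

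Values are FPKM, fragments mapped to a transcript scaled by its length and by the depth of the library, as deposited by the authors, and are always given below in the order control male, control female, BPA male and BPA female. The steps of low FPKM values gave depths of about 9253550, 8947700, 9184100 and 8999150 fragments. The Y-linked gene Eif2s3y was listed at 52.77, 0.01, 47.18 and 0.07 FPKM (0.01 stands for 0), which matched the sex labels. The row with the symbol Ddx3y (0.01, 0.04, 0.07 and 0.01 FPKM) carries the Gene ID of an autosomal gene in a RefSeq table. The Gene ID that this table gives to the Y-linked Ddx3y was listed in the male libraries alone, under the symbol Ddx3, at 13.33 FPKM in control male and 15.03 in BPA male. Neurod6 (233.37, 215.55, 255.27 and 231.04 FPKM), a transcription factor of cortical projection neurons, was abundant in every library, and no defining marker of the vascular cell types that was listed stood at 0 in any library. BPA and control were compared over both sexes with limma on log2(FPKM + 0.5), with the male and the female library standing in as 2 replicates. Benjamini-Hochberg adjustment ran over all 13163 genes with a mean of at least 1 FPKM. Within a sex, 1 library stood against 1, so the log2 ratios there, also taken after adding 0.5 FPKM, have no replicate check. Their 95% exact intervals are for the ratio of estimated fragments and cover counting error only.

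The vascular genes were, as a group, lower in the BPA libraries, with the summed barrier genes closest to control in both sexes. Of that barrier sum, 46.0% came from Tfrc, which many cell types make. Furthest below control by their sums were smooth muscle genes in males (57.7%), and in females endothelial identity genes (61.3%) and smooth muscle genes (61.7%). The 37 genes summed to 265.2, 301.4, 230.1 and 209.6 FPKM, so that BPA stood at 86.8% of control in males and 69.5% in females, a difference between the sexes that was not tested. Both BPA libraries lay below both controls. Of the 30 genes with a mean of at least 1 FPKM, 17 had both BPA libraries below both controls and 0 had both above. The same held for 31.9% (lower) and 18.7% (higher) of all 13163 genes, and for 33.4% and 19% of the 10632 genes with a Gene ID. In both sex pairs, 20 of the 30 were lower and 0 higher, against 40.1% lower in both among all genes and 41.7% among those with a Gene ID. Higher in both pairs were 3414 of all 13163 genes and 2779 of the 10632 genes with a Gene ID. The median log2 fold change of the 30 vascular genes was −0.35, against −0.04 over all genes tested. Among markers of other cell types, summed meningeal fibroblast genes stood at 46.6% of control in males and 25.2% in females. Those of astrocytes and radial glia stood at 87.8% and 72.3%, and those of neurons at 107.4% in both sexes. Their part in the result was not tested. In bulk tissue, fewer cells of a type and less RNA per cell cannot be told apart.

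The limma test called 0 of the 30 genes at an adjusted p under 0.05, and 13 had an unadjusted p under 0.05, all 13 lower with BPA. Over all genes, 17.3% had an unadjusted p under 0.05, and 12% had one and were lower. After adjustment the test called over all genes 60 lower (0.456%) and 14 higher (0.106%). When the same test ran on the genes with a Gene ID alone, which leaves out features named by the sequencing provider, it called 403 lower (3.79%) and 74 higher (0.696%), and 6 vascular genes were then among those called, all lower. These were Cdh5, Kdr, Tek, Tie1, Rgs5 and Acta2. In the male pair 0 of the 30 genes had a log2 ratio of −1 or below or of 1 or above, where 1.88% of all genes were that low and 1.19% that high (0.95% and 0.235% of those with a Gene ID). In the female pair 2 genes, Cdh5 and Emcn, were at −1 or below and 0 at 1 or above, against 2.9% and 1.19% of all genes (1.99% and 0.0941% of those with a Gene ID). Vascular genes past this ratio in females numbered 4 with a pseudocount of 0.1, 0 with 2 and 1 after median centring. In males 1 was past it with a pseudocount of 0.1. Without any added value, Acta2 stood at 47.3% and Pdgfb at 49.7% of control in males. In a count added after the values were seen, the counting interval lay below equality for 14 of the 30 genes in males and 19 in females, and above it for 0 in either sex. Among genes with a Gene ID it lay below equality for 20.6% in males and 22.4% in females, and above for 12.9% and 11.7%.

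**Figure D1:**
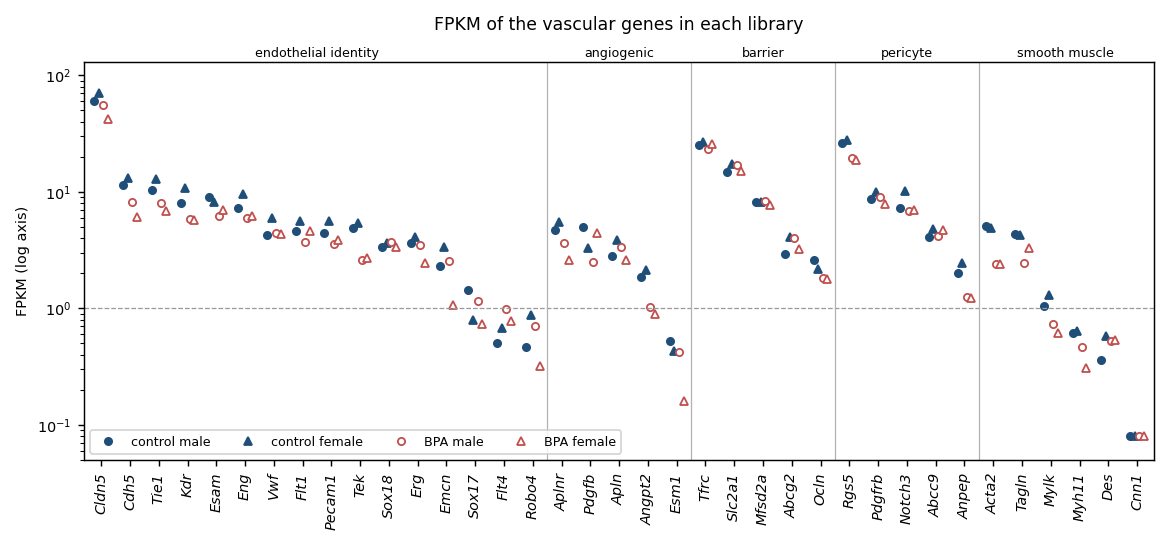
FPKM (log axis) of the 37 listed vascular genes, grouped by role and ordered by mean level; filled symbols are control and open symbols BPA libraries, circles male and triangles female, and the dashed line marks 1 FPKM. Cldn5 was the most abundant at 42.57 to 70.46 FPKM, and the open symbols of Tek, Angpt2, Anpep and Acta2 lie below both filled ones.

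Endothelial identity genes formed the largest group, with 16 genes listed and 14 tested. Their summed level was 136.7, 160.8, 117.1 and 98.6 FPKM, 85.7% of control in males and 61.3% in females. The median log2 fold change was −0.40, and 9 of the 14 had both BPA libraries below both controls, against 31.9% of all genes. Limma called 4 of the 14 lower over genes with a Gene ID, against 3.79% of those genes.

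Claudin 5 (Cldn5), the main tight junction protein of brain endothelium, had 60.49, 70.46, 55.80 and 42.57 FPKM. It was lowest in BPA female, and the groups did not overlap, but control male and BPA male differed by less than counting error (log2 ratio −0.12, interval −0.27 to 0.03). VE-cadherin (Cdh5), the adhesion molecule that joins endothelial cells and defines them, had 11.47, 13.16, 8.14 and 6.03 FPKM. Both BPA libraries were below both controls, by a log2 ratio of −0.47 in males and −1.06 in females. Over both sexes the log2 fold change was −0.77 ± 0.16 (SE), with a limma adjusted p of 0.111 over all genes and 0.0192 over those with a Gene ID. Pecam1, an adhesion molecule on the endothelial surface and the other defining gene, had 4.45, 5.65, 3.60 and 3.89 FPKM. Its groups did not overlap either, though the male ratio lay within counting error (interval −0.71 to 0.09). Its log2 fold change of −0.38 ± 0.17 (SE) had a limma adjusted p of 0.309, and was −0.22 without control female.

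Among the receptors, Tek (Tie2), which binds the angiopoietins, was furthest down of the tested endothelial genes with all 4 libraries, at 4.88, 5.35, 2.62 and 2.70 FPKM. The controls were close to each other, as were the BPA libraries, and the gap between them lay beyond counting error in both sexes, with a log2 ratio of −0.79 in males and −0.87 in females. The log2 fold change was −0.83 ± 0.16 (SE; 95% interval −1.21 to −0.45), with a limma adjusted p of 0.0879 over all genes and 0.0200 over those with a Gene ID. With a pseudocount of 2 it was −0.61 and that of Cdh5 −0.66. Tie1, the orphan relative of Tek with which it pairs, and Kdr (VEGFR2), the main signalling receptor for VEGF-A, were chosen for description after their values were seen, since both were called over genes with a Gene ID. Tie1 had 10.47, 12.77, 8.10 and 6.90 FPKM (log2 fold change −0.60). Kdr had 8.06, 10.71, 5.88 and 5.77 FPKM (log2 fold change −0.63). In neither gene did the groups overlap, and limma gave an adjusted p of 0.0362 for Tie1 and 0.0427 for Kdr over genes with a Gene ID, and of 0.131 and 0.142 over all genes.

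Flt1 (VEGFR1), a VEGF receptor that acts in part as a decoy, had BPA libraries at 3.69 and 4.61 FPKM and controls at 4.61 and 5.62, so that BPA female equalled control male. Endoglin (Eng), a TGF-beta co-receptor, and Esam, a junctional adhesion molecule, had both BPA libraries below both controls, with log2 fold changes of −0.43 (−0.25 without control female) and −0.35. The male ratio of Eng (interval −0.6 to 0.02) and the female ratio of Esam (−0.6 to 0.15) lay within counting error. Not every endothelial gene was lower. Sox18, a transcription factor of endothelial differentiation, had 3.35, 3.67, 3.72 and 3.37 FPKM, with overlapping groups and a log2 fold change of 0.01 (95% interval −0.39 to 0.41). Its relative Sox17 was scarce, at 0.74 to 1.43 FPKM, and the groups overlapped as well. Erg, an ETS factor that maintains endothelial identity, was nearly equal in the male pair (log2 ratio −0.04) and lower in the female pair (−0.64). For Erg, both BPA libraries still lay below both controls, with the male ratio within counting error (interval −0.62 to 0.53).

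Von Willebrand factor (Vwf), the clotting protein stored in endothelial granules, and endomucin (Emcn), a sialomucin of venous and capillary endothelium, were above control in BPA male, within counting error, and below it in BPA female. Emcn had 2.30, 3.37, 2.56 and 1.06 FPKM, and its female log2 ratio of −1.31 was the lowest of the 30 genes in either pair. That ratio rests on 41 against 13 estimated fragments (interval −2.69 to −0.74), and the male ratio was 0.13 (interval −0.62 to 0.93). Whether the sexes differed was not tested. The receptors Flt4 (VEGFR3) and Robo4 had means under 1 FPKM and were not tested. Flt4 was the one endothelial gene with both BPA libraries above both controls, at 0.50, 0.68, 0.99 and 0.78 FPKM, from 20, 26, 39 and 30 estimated fragments. Its counting interval lay above equality in males (0.16 to 1.83) and spanned it in females (−0.61 to 1.01).

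The 5 angiogenic genes, markers of sprouting tips and growing vessels, summed to 14.9, 15.3, 10.9 and 10.7 FPKM, or 73.2% of control in males and 70.1% in females. Angiopoietin 2 (Angpt2), which antagonizes Tek during vessel remodelling, had 1.84, 2.15, 1.02 and 0.90 FPKM. Both BPA libraries were below both controls, each beyond counting error, and the log2 fold change of −0.77 ± 0.26 (SE) was the lowest of this group (limma adjusted p 0.227), though with a pseudocount of 2 it was −0.43 and that of Aplnr −0.49. The apelin receptor (Aplnr) had 4.74, 5.55, 3.62 and 2.62 FPKM, also without overlap, with a log2 fold change of −0.65 ± 0.20 (SE) and a limma adjusted p of 0.193.

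Its ligand apelin (Apln), a product of tip cells, had 2.83, 3.85, 3.39 and 2.62 FPKM. These groups overlapped, with BPA above control in males (log2 ratio 0.22) and below it in females (−0.48). Pdgfb, the endothelial ligand that attracts pericytes, had 5.01, 3.29, 2.49 and 4.41 FPKM. It was lower with BPA in males beyond counting error (log2 ratio −0.88, interval −1.61 to −0.43), while the female ratio of 0.37 had an interval that spanned equality (−0.13 to 0.99), and the difference between the sexes was not tested. Esm1, a secreted proteoglycan of tip cells, was at 0.16 to 0.52 FPKM, from 3 to 10 estimated fragments, with counting intervals that spanned equality in males (−1.85 to 1.18) and females (−3.97 to 0.64).

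**Figure D2:**
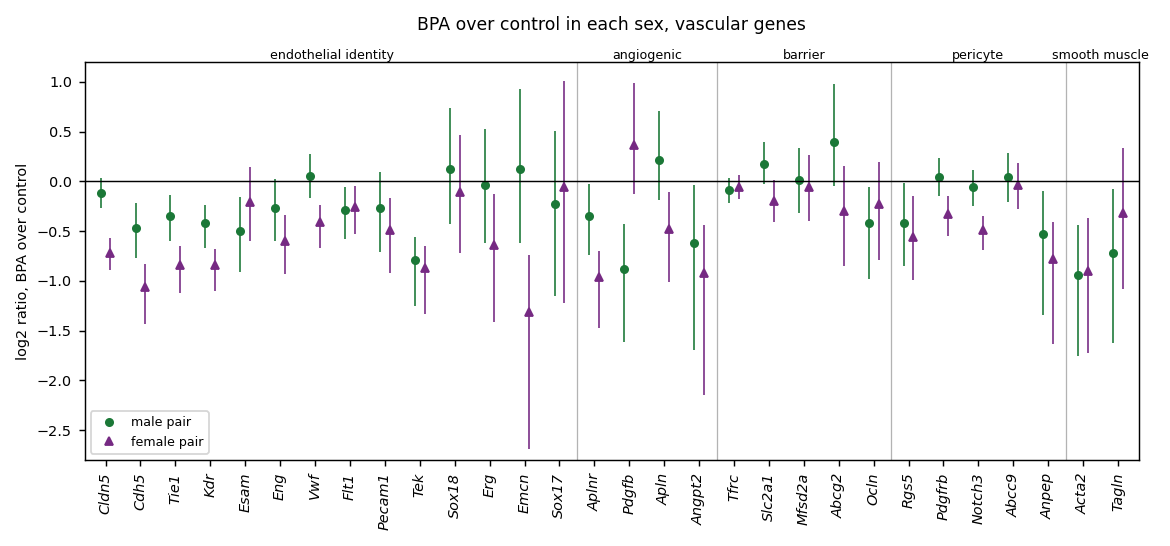
Log2 ratio of BPA over control in the male pair (circles) and the female pair (triangles) for the 30 vascular genes with a mean of at least 1 FPKM, by role; points are ratios after adding 0.5 FPKM, and bars are 95% exact counting intervals of the ratio of estimated fragments, without the added value and without any spread between animals. Emcn in females is the lowest point at −1.31.

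Barrier genes, as grouped here, stood closest to control, with summed levels of 53.8, 58.4, 54.6 and 53.4 FPKM, 101.5% of control in males and 91.5% in females. Tfrc alone held 46.0% of this sum, and the tight junction gene Cldn5 was counted with the endothelial identity genes. The median log2 fold change of the barrier genes was −0.03, beside −0.04 over all genes, and 0 of the 5 had an unadjusted p under 0.05 in limma (17.3% of all genes). This median was −0.12 without control male, −0.03 without control female and −0.09 without BPA male, and it changed sign without BPA female (0.02) and after median centring (0.04). The transferrin receptor (Tfrc), which takes up iron and is made by many cell types, had 25.15, 26.83, 23.55 and 25.71 FPKM. The glucose transporter GLUT1 (Slc2a1), found in brain endothelium and also in astrocytes, had 14.86, 17.24, 16.88 and 14.98 FPKM. Both genes had overlapping groups, and the log2 fold change of Slc2a1 was −0.01 with a 95% interval of −0.27 to 0.26. The lipid transporter Mfsd2a, which brings omega-3 fatty acids into the brain and restrains transcytosis, lay between 7.78 and 8.30 FPKM in the 4 libraries, and its log2 fold change of −0.03 had an interval of −0.28 to 0.23.

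The efflux pump Abcg2 had 2.92, 4.07, 4.02 and 3.21 FPKM, above control in BPA male and below it in BPA female, and its log2 fold change of 0.05, the highest of the 30 genes with all 4 libraries, did not keep its sign in every alternative. Occludin (Ocln), a tight junction protein, was the one barrier gene without overlap, at 2.59, 2.16, 1.81 and 1.77 FPKM, with a log2 fold change of −0.32 ± 0.22 (SE), −0.22 without control male and −0.21 with a pseudocount of 2, and a limma adjusted p of 0.478. The female ratio of Ocln lay within counting error (interval −0.79 to 0.2). Abcb1a, the P-glycoprotein pump, was not found by its symbol. Its NCBI Gene ID in a RefSeq table is listed under the symbol Abcb1, and this gene, looked up after the other values were seen and kept out of all counts, had 2.80, 3.36, 1.62 and 1.76 FPKM. Both BPA libraries were below both controls, with log2 ratios of −0.64 in males and −0.77 in females and a limma adjusted p of 0.191. Summed barrier genes came to 0.393, 0.363, 0.466 and 0.542 of the summed endothelial identity genes, higher in both BPA libraries than in both controls. This ratio depends on how genes were grouped, since Tfrc held 46.0% of the barrier sum and Cldn5 44.7% of the endothelial sum.

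Pericyte genes summed to 48.3, 55.2, 40.8 and 39.5 FPKM, 84.5% of control in males and 71.6% in females, and were divided. Their median log2 fold change of −0.28 was −0.50 without control male and −0.05 without control female. Rgs5, a regulator of G protein signalling that marks pericytes, had 26.20, 27.77, 19.44 and 18.70 FPKM. The 2 libraries of each treatment were close and the treatments did not overlap. Its log2 fold change of −0.49 ± 0.07 (SE; 95% interval −0.67 to −0.31) had a limma adjusted p of 0.0636 over all genes and 0.0107 over those with a Gene ID. The level rests on a transcript of 546 bases and 82 to 121 estimated fragments a library. Counting intervals of the ratio were −0.85 to −0.02 in males and −0.99 to −0.15 in females. Each is wider than the limma interval, which reflects how closely the libraries of a treatment agreed. The PDGF-B receptor (Pdgfrb), the defining gene of pericytes, had 8.73, 10.01, 9.0 and 7.85 FPKM. Its groups overlapped, with BPA male between the controls, and the log2 fold change was −0.15 (95% interval −0.45 to 0.16), −0.05 without control female or BPA female and −0.24 without control male or BPA male.

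Aminopeptidase N (Anpep, CD13), an ectoenzyme of the pericyte surface, was lowest of the pericyte genes, at 2.02, 2.47, 1.24 and 1.23 FPKM. The groups did not overlap, and the log2 fold change of −0.66 ± 0.24 (SE) had a limma adjusted p of 0.252; with a pseudocount of 2 it was −0.39 and that of Rgs5 −0.46. Abcc9, the sulfonylurea receptor subunit of the pericyte potassium channel, had 4.09, 4.83, 4.21 and 4.68 FPKM. Both BPA libraries lay between the controls, and the log2 fold change was 0.00 with an interval of −0.38 to 0.38. Notch3, the Notch receptor of mural cells, was near equality in males (log2 ratio −0.06) and lower in females (−0.49, interval −0.69 to −0.35).

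Smooth muscle genes were scarce, with summed levels of 11.6, 11.8, 6.7 and 7.2 FPKM, and stood at 57.7% of control in males and 61.7% in females. Smooth muscle actin (Acta2), the defining gene, had 5.12, 4.88, 2.42 and 2.39 FPKM from 64, 59, 30 and 29 estimated fragments. Both BPA libraries were close to each other and far below both controls, at 47.3% of control in males and 49.0% in females. The log2 fold change of −0.92 ± 0.16 (SE; 95% interval −1.31 to −0.54) was the lowest of the 30 genes with all 4 libraries, with a limma adjusted p of 0.0754 over all genes and 0.0131 over those with a Gene ID. Transgelin (Tagln, SM22), an actin-binding protein of contractile cells, had 4.34, 4.28, 2.44 and 3.32 FPKM. Its groups did not overlap either, with a log2 fold change of −0.52 ± 0.19 (SE) and a limma adjusted p of 0.247 (−0.33 without BPA male), and in females the ratio lay within counting error.

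The other 4 smooth muscle genes had means under 1 FPKM and were not tested. Myosin light chain kinase (Mylk), which starts contraction, had 1.04, 1.29, 0.74 and 0.62 FPKM, and smooth muscle myosin (Myh11) had 0.62, 0.64, 0.47 and 0.31 FPKM. Both were lower in both BPA libraries, beyond counting error in females alone. Desmin (Des), an intermediate filament protein, was at 0.36 to 0.58 FPKM with overlapping groups, and calponin (Cnn1) was at 0.08 FPKM in every library, the value of 1 fragment.

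Contractile genes are switched on by serum response factor (SRF) with its partner myocardin at CArG boxes, a pattern of CC, 6 letters of A or T, and GG that reads alike on both strands. SRF (Srf) had 13.81, 13.32, 11.94 and 11.79 FPKM and myocardin (Myocd) 0.04 to 0.07 FPKM, both chosen after their values were seen. Srf was lower in both BPA libraries, with a limma adjusted p of 0.323, and Myocd overlapped between treatments. In RefSeq promoters (assembly GRCr8), the 250 bases before the gene start held an exact CArG box in 501 of 33469 genes (1.5%), in 0 of the 25 vascular genes found in that table and in 0 of its 4 smooth muscle genes. These 4 were Acta2, Cnn1, Des and Mylk, while Tagln and Myh11 had no promoter there and were not searched. With 1 other letter allowed among the middle 6, a search added after the values were seen, 8.08% of all promoters and 1 of those 4, Acta2, held a box. The promoter of Acta2 is shown for its 2 boxes (capitals), which begin 134 and 84 bases before the start. The sequence covers the 150 bases before the start, on the minus strand, chr1:241172504-241172653 of GRCr8.
Acta2: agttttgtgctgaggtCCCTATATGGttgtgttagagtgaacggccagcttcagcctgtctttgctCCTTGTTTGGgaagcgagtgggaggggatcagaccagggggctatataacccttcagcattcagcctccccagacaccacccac
A match describes the letters alone, and binding of SRF was not measured.

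Wider lists of vascular genes were described in the same way, and their counts stand against 31.9% of all genes with both BPA libraries below both controls and 18.7% above, and 3.79% of genes with a Gene ID called lower. Among other endothelial genes, 12 of 16 tested were below in this sense and 0 above, with a median log2 fold change of −0.28; the most abundant, the adrenomedullin co-receptor Ramp2, had 49.68, 48.78, 45.51 and 40.58 FPKM. Limma called 0 of these 16 over all genes and 2, Cav1 and Emp1, over genes with a Gene ID, and 7 had an unadjusted p under 0.05 (17.3% over all genes). Among other barrier transport and junction genes, 9 of 15 were below and 1, the amino acid transporter Slc7a5, above (44.43, 48.17, 65.21 and 54.07 FPKM), with a median of −0.18. Limma called 0 of these 15 over all genes and 3 over genes with a Gene ID, all lower, among them the transporters Slco1c1 and Slc38a5, and 6 had an unadjusted p under 0.05. The amino acid transporter heavy chain Slc3a2 was the most abundant and overlapped between treatments (83.33, 86.94, 85.54 and 78.76 FPKM), and Lsr, a tricellular junction protein, was at 0 in BPA male.

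Other pericyte genes had 6 of 12 below (31.9% of all genes) and 0 above, with a median of −0.26, and 2 were called, both lower, over genes with a Gene ID (3.79% called lower). One of them, Cd248 (endosialin), a glycoprotein of pericytes and also of fibroblasts, fell in limma over all genes, at 10.02, 10.13, 5.57 and 4.98 FPKM (log2 fold change −0.87 ± 0.12, adjusted p 0.0465). This call was lost after median centring, with sex as a term, without a filter, without a trend and without any 1 library. Vitronectin (Vtn), the most abundant, stood at 9.93, 11.69, 8.82 and 7.66 FPKM, with both BPA libraries below both controls but the male ratio within counting error (interval −0.53 to 0.18). Other smooth muscle genes had 7 of 8 below (31.9%) and 0 above, with a median of −0.44, and 4 were called, all lower, over genes with a Gene ID (3.79%). Pcp4l1, a small IQ-motif protein also made by neurons, fell (9.20, 9.73, 3.54 and 4.41 FPKM, limma log2 fold change −1.16 ± 0.14, adjusted p 0.0432), and tropomyosin 1 (Tpm1), the most abundant and made by many cells, had 63.08, 63.30, 51.26 and 47.36 FPKM. Actg2 and Lmod1 of this list were at 0 in 1 library each.

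Of the partners of the VEGF, angiopoietin, PDGF and apelin pathways, 6 of 10 were below and 0 above, with a median of −0.27, and 1 was called both over all genes and over those with a Gene ID. Neuropilin 2 (Nrp2), a co-receptor for VEGF-C and for semaphorins that neurons also make, fell, at 23.04, 26.21, 8.71 and 11.78 FPKM (limma log2 fold change −1.24 ± 0.15, adjusted p 0.0432). The calls of Pcp4l1 and Nrp2 were lost without a filter, without a trend and without any 1 library. The list's sum was 114.7, 122.2, 91.2 and 90.6 FPKM. Pdgfra was the most abundant by its mean over the 4 libraries (21.65, 24.31, 19.09 and 17.11 FPKM), while Nrp2 was higher in both controls. The ligand Vegfa had 11.13, 13.74, 11.11 and 11.33 FPKM, with BPA female inside the control range, and Angpt1, the agonist of Tek, had 2.84, 3.54, 1.68 and 1.77 FPKM without overlap (limma adjusted p 0.187); both were picked after their values were seen, as the ligands of Kdr and Tek.

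Of the Notch and TGF-beta genes, 5 of 14 were below, near the 31.9% of all genes, and 1 above, with a median of −0.11; their most abundant gene was the receptor Bmpr2 (26.73, 27.05, 24.41 and 27.74 FPKM). Of the Wnt genes that build the barrier, 7 of 12 were below and 1 above, with a median of −0.22 and beta-catenin (Ctnnb1) the most abundant (190.02, 183.67, 177.87 and 186.25 FPKM). Of the arterial, venous and lymphatic genes, 4 of 7 were below and 0 above, with a median of −0.15, led by ephrin B2 (Efnb2; 59.57, 63.11, 55.83 and 60.23 FPKM), which neurons make as well. Limma called 0 genes in these 3 lists over all genes and 2, 0 and 1 over genes with a Gene ID, all lower, which were Tgfbr2, Id3 and Lyve1 (3.79% of all genes with a Gene ID). In the same order, 4, 3 and 3 had an unadjusted p under 0.05, against 17.3% of all genes.

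**Figure D3:**
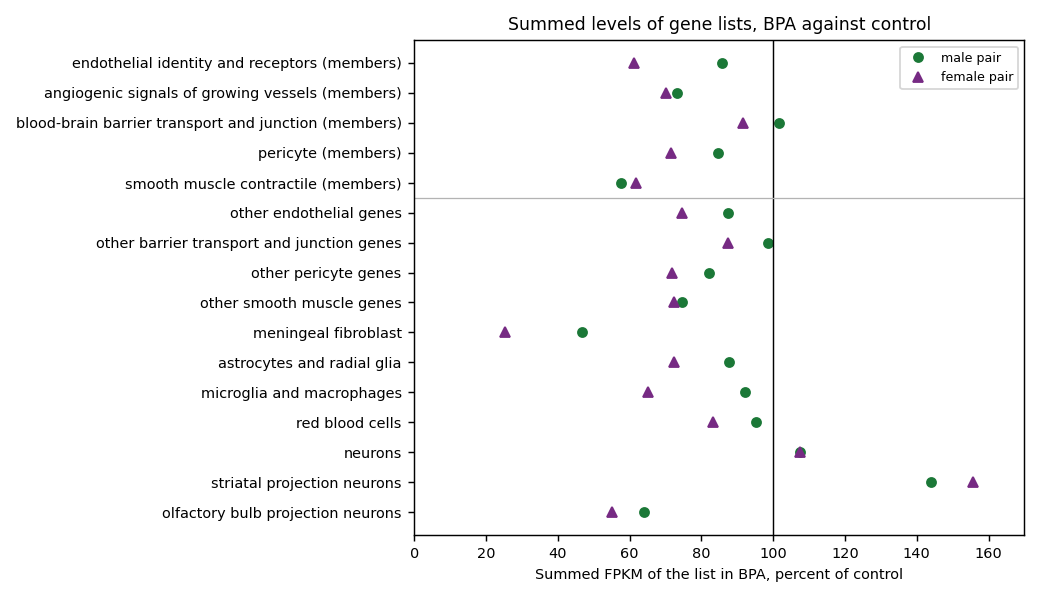
Summed FPKM of each gene list in BPA as a percent of control, in the male pair (circles) and the female pair (triangles), for the 5 groups of vascular genes above the grey line and for other lists below it; the vertical line marks 100%. Meningeal fibroblast genes lie lowest, at 46.6% in males and 25.2% in females, and striatal projection neuron genes highest.

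Markers of other cell types were lower with BPA in some lists and higher in others, and their part in the result was not tested. Meningeal fibroblast genes were down further than any vascular group. All 20 of 20 had both BPA libraries below both controls (31.9% of all genes), limma called 10 lower (0.456%) and 0 higher over all genes and 16 lower over genes with a Gene ID (3.79%), and their sum was 586.4, 753.6, 273.5 and 190.1 FPKM. None was at 0 in any library. Prostaglandin D synthase (Ptgds) was the most abundant, at 214.04, 320.00, 109.08 and 66.86 FPKM, and the growth factor Igf2 (61.22, 61.10, 18.69 and 14.13 FPKM), the gap junction protein Gjb2 (15.89, 15.44, 5.0 and 3.34 FPKM) and the GABA transporter Slc6a13 (12.54, 18.18, 5.28 and 4.54 FPKM) fell, with limma log2 fold changes of −1.88, −1.81 and −1.53 and adjusted p of 0.0254, 0.0276 and 0.0432. The calls of Igf2, Gjb2 and Slc6a13 were lost without a filter, without a trend and without any 1 library. The pia carries vessels of its own, and vessels of the pia and of the cortex cannot be told apart here. Summed endothelial identity genes came to 0.233, 0.213, 0.428 and 0.519 of the summed meningeal genes.

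Genes of astrocytes and radial glia summed to 957.6, 975.5, 840.6 and 705.7 FPKM, with 7 of 12 below (31.9% of all genes) and 1 above (18.7%), and Fabp7 of radial glia the most abundant (532.55, 515.56, 457.14 and 383.37 FPKM). Genes of microglia and macrophages summed to 60.7, 67.5, 56.0 and 44.0 FPKM, with 5 of 10 below (31.9%) and 0 above. Red blood cell genes summed to 1604.8, 1500.2, 1530.1 and 1247.9 FPKM, with 2 of 6 below, near the share of all genes, and 0 above; Hba1 led (638.29, 608.44, 624.61 and 515.89 FPKM), and Hemgn was at 0 in BPA male. In these 3 lists limma called 0 genes over all genes, and 7, 3 and 1 had an unadjusted p under 0.05, against 17.3% of all genes. Over genes with a Gene ID it called 5 of the 12 astrocyte and radial glia genes (Aqp4, Gja1, Slc1a3, Slc1a2 and Gfap), Mrc1 of the macrophages and Hbb-b1 of the red blood cells, all lower, beside the 6 of 30 vascular genes and 3.79% of all genes with a Gene ID.

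Neuronal genes summed to 3949.9, 3823.0, 4242.9 and 4104.6 FPKM, 107.4% of control in both sexes, with 3 of 12 below and 4 above (31.9% and 18.7% of all genes). Tubulin beta 3 (Tubb3) led (1569.25, 1552.23, 1886.54 and 1767.86 FPKM), and the vesicular glutamate transporter Slc17a7 fell (51.08, 56.97, 30.0 and 32.17 FPKM, limma log2 fold change −0.79, adjusted p 0.0276). The call of Slc17a7 was lost without a filter, without a trend and without any 1 library. Genes of striatal projection neurons summed to 117.9, 119.5, 169.9 and 186.0 FPKM, with 10 of 12 above (18.7%) and 1 below; Ppp1r1b led (24.12, 27.23, 31.97 and 38.78 FPKM), and the receptor Rxrg (6.11, 8.0, 24.56 and 26.17 FPKM) and the peptide Penk (13.92, 14.45, 23.45 and 21.51 FPKM) rose (limma log2 fold changes 1.79 and 0.64, adjusted p 0.0254 and 0.0462). Genes of olfactory bulb projection neurons summed to 87.0, 99.3, 55.7 and 54.6 FPKM, with 2 of 3 tested below (31.9%); Reln led (31.16, 40.83, 36.96 and 37.83 FPKM), Tbx21 was at 0 in BPA male, and the cadherin Cdhr1 fell (41.10, 44.48, 10.77 and 9.29 FPKM, limma log2 fold change −2.04, adjusted p 0.00841). Reln led by its mean over the 4 libraries, while Cdhr1 was higher in both controls. The calls of Rxrg, Penk and Cdhr1 were lost without a filter, without a trend and without either BPA library. That of Penk was also lost with sex as a term and without either control library, and that of Rxrg without control male. Skeletal and heart muscle genes summed to 17.6, 20.5, 13.2 and 12.2 FPKM, with 3 of 3 tested below (31.9%), Acta1 the most abundant by mean (6.59, 5.09, 5.0 and 5.03 FPKM) and Myog at 0 in 2 libraries. In control female, Tnnt2 (9.02 FPKM) and Myh7 (5.61 FPKM) were above Acta1. Choroid plexus genes summed to 3.8, 4.7, 2.8 and 2.4 FPKM, led in the mean by Foxj1 (1.11, 1.25, 1.03 and 1.05 FPKM), the 1 gene tested, with Folr1 at 0 in both controls and Kl in control male. Kcnj13 was above Foxj1 in both controls (1.25 and 1.67 FPKM).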

How the data were processed

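Per the study's methods and the submitters' processing notes, mRNA was selected with oligo(dT), sequenced on an Illumina HiSeq instrument and mapped to the rat genome (rn6) with Bowtie2, and HISAT is named as well; versions are not given in the sources used here. The authors calculated expression with RSEM, and the deposited values are FPKM, normalized by them for length and depth.

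From there, values at 0.01 were taken as 0. Depth was recovered as the fragment number that brought FPKM times effective length (length minus 60 bases) of scarce rows closest to whole numbers; 82.8 to 84.7% came within 0.1. Intervals on these fragments are exact conditional binomial (Clopper-Pearson) and cover counting error only. Treatments were compared with limma 3.58.1 in R 4.3.3 (prior variance with a trend, no term besides treatment, 2 residual degrees of freedom). The sexes served as replicates, so the p-values measure only the spread between these libraries. An exact permutation test of 2 libraries against 2 cannot give a p below 0.333. Both procedures were tested on simulated data. Summing per gene symbol merged 0 rows. Python 3.11.15, numpy 2.4.6, pandas 2.3.3, scipy 1.17.1 and matplotlib 3.10.9 did the rest. RefSeq tables (GRCr8) gave promoters and the identity of Gene IDs listed under another symbol.

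The vascular genes and all lists were chosen with earlier results of these data known. Values in every library are given for genes with a limma adjusted p under 0.05, for the 2 most abundant and the highest and lowest log2 ratio of each role, and for Cdh5, Pecam1, Pdgfrb and Acta2; from other lists, for up to 3 called genes and the most abundant, which for 1 list is not reported here. Alternatives covered the pseudocount, the filter, the features tested, median centring, sex as a term, the trend and each library left out.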

Additional observations from a re-analysis of the deposited data

How the results depend on the processing

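Over both sexes, limma called 0 vascular genes under every alternative except 2. It called 1 (Rgs5, adjusted p 0.0324) among genes with a mean of at least 5 FPKM, where no angiogenic or smooth muscle gene was left, and 6 among genes with a Gene ID. Both test fewer genes, but the fits differ in more than that. Of the 10632 genes with a Gene ID, limma gave an unadjusted p under 0.05 to 1883 in the main fit and 2244 in the fit on them alone. Standard errors moved as well, for Cdh5 from 0.16 to 0.147 and for Tek from 0.156 to 0.16. The number with an unadjusted p under 0.05 ranged from 7 to 14. Over all genes, 74 calls became 0 without a filter, 164 at a mean of at least 5 FPKM, 477 with a Gene ID alone and 0 without a trend, and 0 to 6 with 1 library left out (3 without control male, 6 without control female, 0 without BPA male and 0 without BPA female); the fit without a library assumes that the lone one varies like the others. Of the 10 called genes of other lists named in the text, 0 were still called without a filter, without a trend, without BPA male or without BPA female, 1 without control male, 2 without control female, 9 after median centring and 8 with sex as a term. Leaving out 1 library moved 20 of the 30 vascular log2 fold changes over 1.5 times or in sign, a count added after the values were seen. Of the 30 vascular genes, 21 kept the sign of their log2 fold change in every alternative, and Sox17, Sox18, Slc2a1, Mfsd2a, Abcg2, Vwf, Apln, Pdgfb and Abcc9 did not. Vascular genes past a log2 ratio of 1 numbered 1 in males with a pseudocount of 0.1, and in females 4 with 0.1, 0 with 2 and 1 after median centring. The sex term, which pairs the libraries by sex, left 0 vascular genes called and 86 genes in all. CArG boxes in smooth muscle promoters went from 0 to 1 with 1 other letter allowed. The cause of these differences was not tested. The median of the smooth muscle genes, −0.72 over 2 genes, was −0.52 with a pseudocount of 2 and −0.42 without a filter. Scarce genes such as Cnn1, Esm1 and Des rest on 11 or fewer fragments, which limits what their values can show.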
